A study of Mus musculus with 20 samples.

Results

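The genes described here are the insulin-like growth factor (IGF) ligands Igf1 and Igf2, the receptor gene Igf1r and the IGF-binding protein genes Igfbp2, Igfbp3, Igfbp4, Igfbp5, Igfbp6 and Igfbp7 in mouse mammary tumors and in the endothelial cells within them. They were taken by name from a gene-level count table of 55866 genes, and 9 of 9 are listed there. Igf2 held 0 counts in all 20 libraries, so 8 members carry values. The set was chosen by a measured value, since Igfbp3 was the most counted gene of 1 endothelial library, control IgG IP 3, at 159917 counts, 0.966% of that library. That value and the Igfbp3 level in contrasts that include this library are given as description only, and Igfbp3 was tested where the library takes no part.

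All libraries came from RiboTag mice (Rpl22HA/HA x Cdh5CreERT2, C57BL/6J females), in which tamoxifen-activated Cre under the Cdh5 promoter makes endothelial cells carry HA-tagged Rpl22, a protein of the ribosome. Tamoxifen was given at 75 mg/kg for 5 days at 3 weeks of age, Py8119 mammary tumor cells were implanted in a mammary fat pad at 8 weeks, and treatment lasted 10 days. The controls received control mouse IgG and the treated mice the Notch4-blocking antibody 6-3-A6, each at 25 mg/kg by vein, 2 times a week. From each of 10 tumors, 5 per treatment, the homogenate (input, RNA of all cells) and the anti-HA immunoprecipitate (IP, RNA on ribosomes of tagged endothelial cells) were sequenced, which gives 4 groups of 5 libraries. All mice carried the tag and Cre and received tamoxifen, all tumors came from the Py8119 line, and every IP depends on which cells used the Cdh5 promoter.

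Background on the pathway helps in reading the members. IGF1 and IGF2 are secreted peptides that act through IGF1R, a receptor tyrosine kinase that signals through insulin receptor substrates, PI3K and AKT. The binding proteins IGFBP1 to IGFBP6 hold the ligands with high affinity in blood and tissue and either withhold them from the receptor or deliver them, and proteases such as PAPP-A free the ligand by cleaving them. IGFBP3 is the main carrier in blood, and IGFBP7 binds IGFs weakly, is found in the vascular basement membrane and is known as a product of tumor vessels.

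Library totals ran from 11881214 to 26728205 counts, and a gene at 3 counts would lie between 0.106 and 0.273 CPM, the unit used below, which divides a count by the total of its library after TMM scaling of the totals. The 17 endothelial marker genes were all higher in IP than in input (edgeR quasi-likelihood test, adjusted p under 0.05 for 17 of 17), with a median log2 fold change of 4.52. Markers of other cells were still present in IP: the summed level of 12 macrophage markers with counts was 3588 to 9496 CPM there, against 6368 to 15085 CPM in input, and 8 of them fell. In the labels of the 6-3-A6 libraries, the description field names the opposite fraction from the title. The titles were followed, and Pecam1, an endothelial adhesion molecule, stood at 193 to 1403 CPM in the 6-3-A6 libraries titled as IP and at 30.0 to 65.9 CPM in those titled as input. IP libraries differed in endothelial content. A score that subtracts the mean log2 CPM of macrophage, fibroblast and epithelial markers from that of endothelial markers ran from 0.07 to 3.43 under control IgG and from 0.46 to 3.02 under 6-3-A6 in IP. Control IgG IP 4 and 6-3-A6 IP 2 scored lowest. The study set aside 4 IP libraries as outliers (control IgG 1 and 3, 6-3-A6 2 and 5) and compared 3 with 3, so results for IP are given for these 6 libraries and for all 10. In such bulk libraries fewer cells of a type and less RNA per cell cannot be told apart.

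Igfbp3 and Igfbp7 were the members with much more RNA in the endothelial IP than in the homogenate, while Igfbp4 was the member that stood highest per kilobase of exon in the homogenate. The stretch of 150 bases just before the annotated transcription start is shown for these 3 genes, because they carry the contrast between the fractions. The sequences are from RefSeq (GRCm38.p6), are printed in the direction of the gene, and lie at chr11:7213924-7214073 (minus strand, Igfbp3), chr5:77408046-77408195 (minus strand, Igfbp7) and chr11:99041094-99041243 (plus strand, Igfbp4). Capitals mark matches to 6 short motifs, searched on both strands. The first motif, spelled TATAAA, is the TATA box, and its variant form is spelled TATATA here. The GC box is spelled GGGCGG here. The core of ETS factor sites was searched in a form spelled CCGGAA here and in another form, spelled CAGGAA here. The core of hypoxia-type elements was searched only in the form spelled ACGTG here. The motifs do not overlap each other within these stretches.
Igfbp3: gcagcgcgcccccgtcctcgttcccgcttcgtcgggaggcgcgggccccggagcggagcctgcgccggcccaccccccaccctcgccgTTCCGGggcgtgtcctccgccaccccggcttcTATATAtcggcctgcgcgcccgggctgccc
Igfbp7: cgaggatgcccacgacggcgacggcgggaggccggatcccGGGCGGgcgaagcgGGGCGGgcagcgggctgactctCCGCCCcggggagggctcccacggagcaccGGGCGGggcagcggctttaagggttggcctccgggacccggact
Igfbp4: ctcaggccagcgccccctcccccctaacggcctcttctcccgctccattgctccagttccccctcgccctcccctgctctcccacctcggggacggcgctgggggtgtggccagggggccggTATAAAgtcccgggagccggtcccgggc

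The Igfbp3 stretch held the variant TATA form, which begins 30 bases before the start, and the CCGG form of the ETS core on the other strand, which begins 62 bases before it. The Igfbp4 stretch held the TATA box, which begins 28 bases before the start, and the Igfbp7 stretch held neither TATA form but 4 GC boxes. Among 32851 promoter stretches of the same length, 2.97% held the variant TATA form, 9.23% the CCGG form of the ETS core, 7.57% the TATA box and 28.6% the GC box. The other ETS form and the searched form of the hypoxia-type core, present in 16.6% and 11.2% of them, were in none of the 3. Other forms of the hypoxia-type core were not searched. All 3 stretches were rich in G and C, at 78.7% for Igfbp3, 78.0% for Igfbp7 and 73.3% for Igfbp4, against a median of 54% over all. These are matches of letters, with no binding measured.

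In the homogenate, Igfbp3 stood at 467, 302, 250, 178 and 144 CPM in the 5 control IgG tumors and at 289, 178, 292, 145 and 162 CPM in the 5 treated with 6-3-A6. In the IP of the same tumors it stood at 11298, 7035, 9162, 1601 and 2752 CPM (control IgG) and at 8355, 1252, 7241, 6528 and 4290 CPM (6-3-A6). The lowest IP library therefore lay above the highest input library, and the lowest IP value of each treatment fell in the library that scored lowest for endothelial content (control IgG IP 4, 6-3-A6 IP 2). By count, Igfbp3 ranked between 1 and 47 among all genes in IP and between 273 and 1280 in input. The library that gave the set its reason was not the one with the largest share: Igfbp3 took 1.13% of the counts of control IgG IP 1, where Actb and another gene ranked above it.

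The mean Igfbp3 level was 5951 ± 3364 CPM in IP and 241 ± 101 CPM in input (SD, n = 10 each), a log2 fold change of 4.55 (SE 0.39, 23.5-fold) given as description. Without the tumor of control IgG IP 3, in both fractions, Igfbp3 rose in IP by a log2 fold change of 4.48 (SE 0.42, 22.3-fold, edgeR adjusted p = 8.10e-08). In these 9 tumors it was higher in IP in 9 of 9, by 2.82 to 5.49 on the log2 scale within a tumor, with an SD of 0.84 between tumors.

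Igfbp7 followed the same course. In input it stood at 110, 107, 70.9, 61.7 and 61.1 CPM under control IgG and at 75.4, 44.9, 72.8, 45.2 and 130 CPM under 6-3-A6. In IP it stood at 1933, 1352, 2042, 435 and 881 CPM under control IgG and at 1916, 242, 1075, 1839 and 1882 CPM under 6-3-A6. The fractions did not overlap, and the same 2 libraries were lowest as for Igfbp3. Igfbp7 rose in IP by a log2 fold change of 4.04 (SE 0.35, 16.5-fold, edgeR adjusted p = 7.75e-09) and was higher in 10 of 10 tumors. The gene overlaps its neighbor Polr2b, a subunit of RNA polymerase II, by 85 bases.

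**Figure D1:**
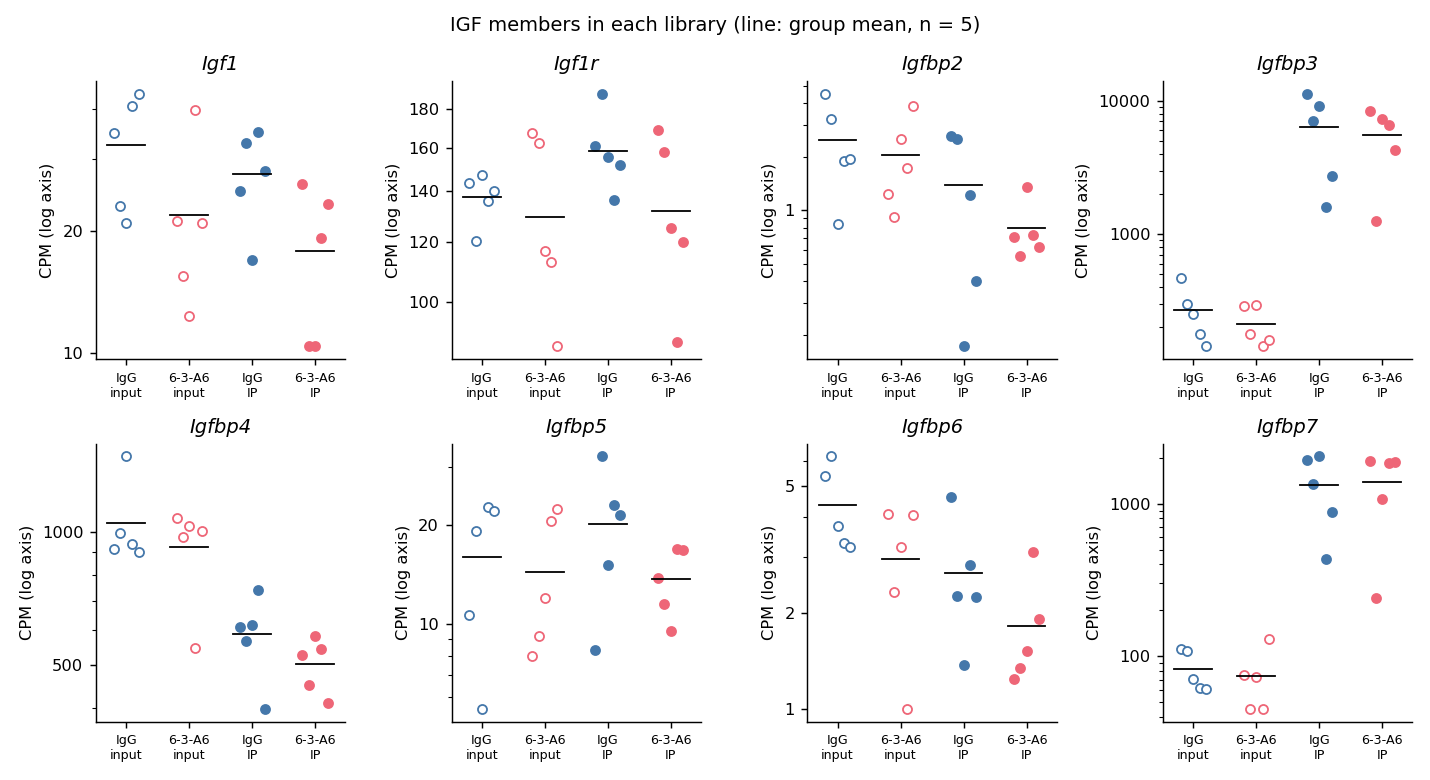
Level of each IGF member with counts in each of the 20 libraries (CPM, log axis), by treatment and fraction. Points are single libraries (open, input; filled, IP), placed from left to right by replicate number, and lines are means of 5. Igfbp3 and Igfbp7 are the members whose IP libraries all lie above all input libraries, at 1252 CPM or more against 467 CPM or less for Igfbp3.

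Igfbp4, a binding protein cleaved by PAPP-A, had the highest level per kilobase of exon among the members in input and fell in the endothelial fraction. Its input level was 914, 998, 1484, 942 and 904 CPM under control IgG and 1078, 973, 1032, 547 and 1007 CPM under 6-3-A6. Its IP level was 611, 567, 618, 741 and 398 CPM under control IgG and 527, 450, 582, 543 and 411 CPM under 6-3-A6. The fractions overlapped only through 6-3-A6 input 4, at 547 CPM. The log2 fold change was -0.93 (SE 0.14, 1.91-fold lower, edgeR adjusted p = 1.73e-05), and Igfbp4 was lower in IP in 10 of 10 tumors, in 1 of them by only 0.01 on the log2 scale. Its mean was 988 ± 227 CPM in input and 545 ± 105 CPM in IP (SD, n = 10 each).

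The scarce binding proteins Igfbp2 and Igfbp6 also fell in IP. Igfbp2 lay between 0.833 and 4.52 CPM in input and between 0.172 and 2.63 CPM in IP, and its log2 fold change was -1.17 (SE 0.41, edgeR adjusted p = 0.0253). Igfbp6, which prefers IGF2 as its ligand, lay between 1.00 and 6.21 CPM in input and between 1.24 and 4.64 CPM in IP, and its log2 fold change was -0.78 (SE 0.25, edgeR adjusted p = 0.0188). Igfbp2 was lower in 10 of 10 tumors and Igfbp6 in 9 of 10, although the ranges overlapped. Both rest on few reads, 3 to 84 counts a library for Igfbp2 and 11 to 100 for Igfbp6. With the 6 tumors kept by the study alone, neither passed (adjusted p = 0.0890 and 0.114), while Igfbp3, Igfbp4 and Igfbp7 did.

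The receptor, the ligand and Igfbp5 did not pass the test between fractions. Igf1r lay between 87.3 and 167 CPM in input and between 88.4 and 189 CPM in IP, with a log2 fold change of 0.05 (interval of 2 SE, -0.21 to 0.30; edgeR adjusted p = 0.794). Igf1 lay between 12.3 and 43.5 CPM in input and between 10.4 and 35.0 CPM in IP, with a log2 fold change of -0.36 (-0.82 to 0.11; adjusted p = 0.222). Igfbp5, a binding protein that attaches to matrix, lay between 5.50 and 22.6 CPM in input and between 8.31 and 32.3 CPM in IP, with a log2 fold change of 0.04 (-0.50 to 0.58; adjusted p = 0.915). The upper ends of these intervals were at most 0.58, against a log2 fold change of 3.16 for the lowest of the 17 endothelial markers.

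Over the members, 4 of the 7 that could be tested with all libraries passed, 1 higher (Igfbp7) and 3 lower (Igfbp2, Igfbp4, Igfbp6). Of all 13582 genes tested, 41.2% passed, 19.8% higher and 21.4% lower, so a call as such does not set the members apart. Fractions did not overlap for 5.4% of all genes, and among the 8 members this held for Igfbp3, where it is description, and Igfbp7. The median log2 fold change was -0.16 over the 8 members and -0.05 over all genes.

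**Figure D2:**
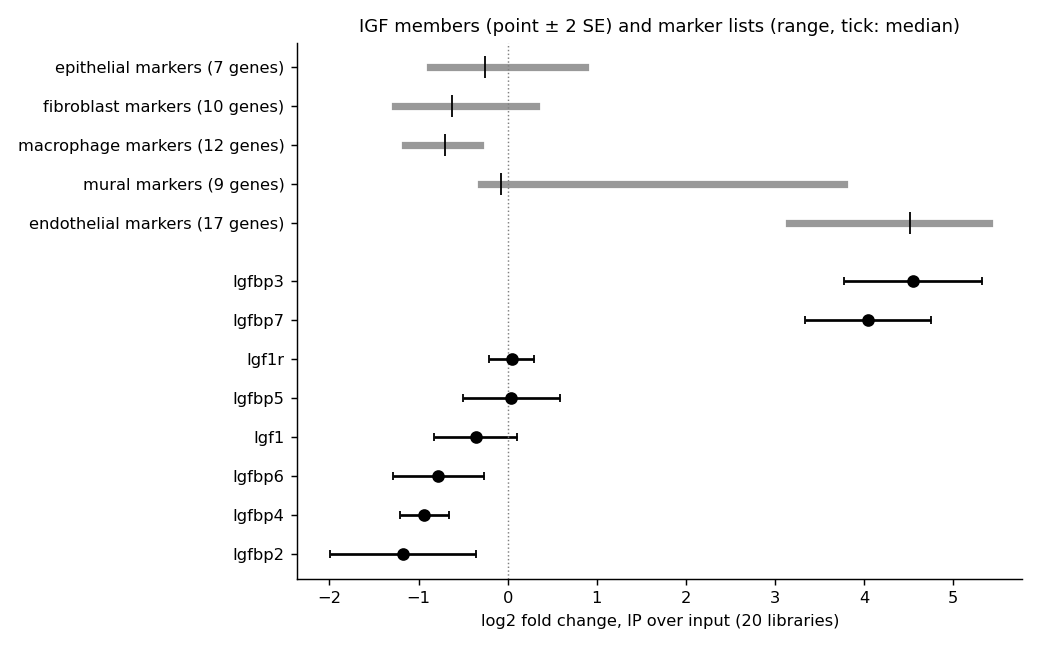
Log2 fold change of IP over input for the 8 members (points, with bars of 2 SE) and for 5 lists of cell type markers (gray bars, lowest to highest gene; ticks, median) over 20 libraries. Igfbp3 (4.55) and Igfbp7 (4.04) lie within the range of the endothelial markers, from 3.16 to 5.41, and the other 6 members lie between -1.17 and 0.05.

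Igfbp3 and Igfbp7 lay within the range of the 17 endothelial markers (3.16 to 5.41), and no other member exceeded 0.05. The 12 macrophage markers ran from -1.15 to -0.31 and the 10 fibroblast markers from -1.27 to 0.32. Igf1, Igfbp4 and Igfbp6 lay within both ranges, and Igf1r, Igfbp2 and Igfbp5 lay within the fibroblast range and outside the macrophage range. Igf1, Igf1r, Igfbp5 and Igfbp6 also lay within the ranges of the epithelial (-0.87 to 0.86) and adipocyte markers (-0.86 to 0.13), Igf1r and Igfbp5 within that of the mural markers (-0.30 to 3.78), and Igfbp2 and Igfbp4 within that of the lymphoid markers (-1.35 to -0.90). Mural markers were mixed, with Kcnj8 at 3.78 and Abcc9 at 2.43 among 9 genes whose median was -0.07. Which cells held each member was not tested.

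Levels can be compared between members only per length. Per kilobase of exon, the mean IP level was 1901 CPM for Igfbp3, 1125 for Igfbp7, 123 for Igfbp4 and 8.65 for Igf1r, and the other 4 members lay between 0.589 and 2.81. In input the order was different, with Igfbp4 at 224 CPM per kilobase, Igfbp3 at 76.9, Igfbp7 at 64.5 and Igf1r at 7.94. Neighbors in each order were compared within libraries by a two-sided exact permutation test of the mean log2 ratio (sign flips), with p adjusted over the 14 pairs. Igfbp3 stood above Igfbp7 in 8 of the 9 IP libraries other than control IgG IP 3, by a mean log2 ratio of 0.71 ± 0.49 (SD, n = 9; exact permutation p = 0.00781, adjusted 0.0122). In input it stood above Igfbp7 in 8 of 10, by 0.24 ± 0.53 (SD, n = 10; exact permutation p = 0.189, adjusted 0.241), so there the order did not exceed the spread. The order of Igfbp5 (2.81), Igf1 (2.29) and Igfbp6 (2.02) in IP did not exceed the spread within libraries either (adjusted exact permutation p = 0.150 for Igfbp5 over Igf1 and 0.392 for Igf1 over Igfbp6), nor did that of Igfbp6, Igf1 and Igfbp5 in input (0.486 for both steps). The other 8 steps passed, with adjusted exact permutation p of at most 0.00684. Counting took in introns as well as exons, so exon length is an approximate scale.

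Igf2 is listed at 0 in every library, and so is Gm49394, a gene model that spans 16048 of its 16051 bases. Htra1, which encodes a protease of IGFBPs and lies wholly inside the span of Fgfr2, was likewise at 0. Itgam, the macrophage marker without counts, is overlapped by the gene model Gm49368 over 55809 of its 55852 bases. Whether these zeros stand for the RNA of the genes cannot be told from the table. Igfbp1, the neighbor of Igfbp3 at a distance of 3539 bases on chromosome 11, is overlapped by no other gene model and had 26 counts in the 10 IP libraries and 0 in the 10 input libraries, at most 6 in a library. Igfbp2 and Igfbp5 are also neighbors, 5457 bases apart on chromosome 1.

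Levels of Igfbp3 and Igfbp7 in IP moved with the endothelial content of the library. For Igfbp7 over 10 IP libraries, Pearson's r between its log2 CPM and the score was 0.81 (permutation p = 0.00327, adjusted over the 8 relations examined 0.0131) and Spearman's rho was 0.72 (permutation p = 0.0233, adjusted 0.102). For Igfbp3 over the 9 IP libraries other than control IgG IP 3, r was 0.89 (exact permutation p = 0.00141, adjusted 0.0113) and rho was 0.75 (exact permutation p = 0.0255, adjusted 0.102). The 2 libraries whose scores lay farthest from the median were control IgG IP 4 and 6-3-A6 IP 2 for Igfbp7, and without them r was 0.54 (exact permutation p = 0.180, n = 8). For Igfbp3 they were control IgG IP 4 and 6-3-A6 IP 3, and without them r was 0.86 (exact permutation p = 0.0101, n = 7). Without the same pair as for Igfbp7, r for Igfbp3 was 0.73 (exact permutation p = 0.0494, n = 7). With that pair left out no member passed after adjustment (adjusted p = 0.162 for Igfbp3 and 0.288 for Igfbp7), and r remained above 0 for both. Of 13602 genes, 5.04% had an r at or above that of Igfbp7 over the 10 libraries, and 2.29% had one at or above that of Igfbp3 over the 9 libraries. The score and the levels come from the same libraries and depths.

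The other 6 members had r between -0.46 (Igfbp5) and 0.17 (Igfbp4), and none passed (adjusted p of 0.480 or more for r). Without control IgG IP 4 and 6-3-A6 IP 2, r moved to 0.74 for Igfbp4, from -0.27 to -0.65 for Igf1 and to -0.66 for Igfbp5 (adjusted exact permutation p = 0.162 for each, n = 8), so those 2 libraries shape these values too. Between members, Igfbp3 and Igfbp7 had an r of 0.91 over the 10 IP libraries and 0.53 over the 10 input libraries. The value in IP includes control IgG IP 3 and is description only. Igf1 and Igfbp5 had an r of 0.65 in IP and 0.52 in input.

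**Figure D3:**
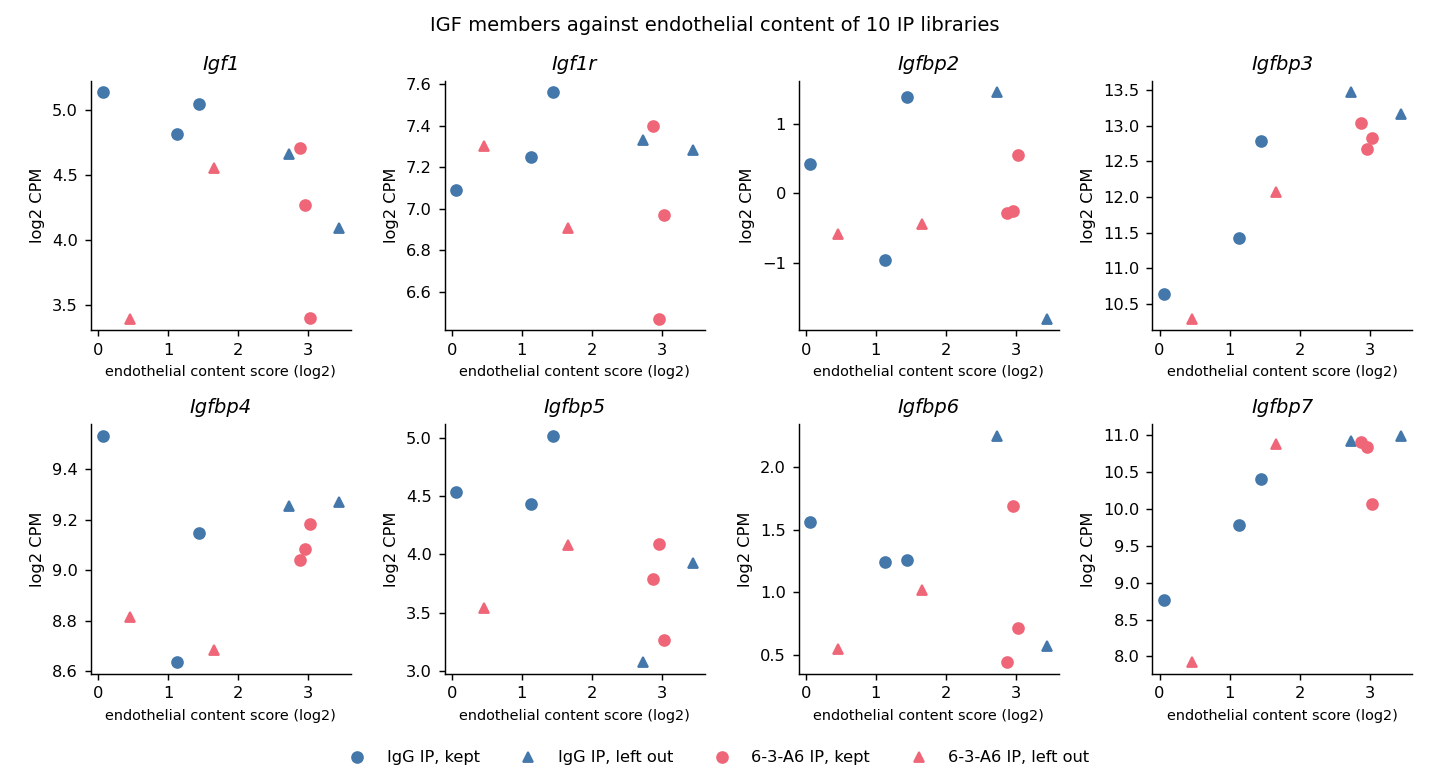
Log2 CPM of each member against the endothelial content score (log2) in the 10 IP libraries. Colors mark treatment, circles the 6 libraries kept by the study and triangles the 4 left out. Igfbp3 and Igfbp7 rise with the score (r = 0.89 over 9 libraries without control IgG IP 3, and 0.81 over 10), with control IgG IP 4 and 6-3-A6 IP 2 at the lower left.

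The genes whose log2 CPM over the 20 libraries was most like that of Igfbp3 were Flt4 (the VEGF-C receptor, r = 0.991), Gpihbp1 (the capillary anchor of lipoprotein lipase, 0.990) and Emcn (endomucin, 0.989). Those most like Igfbp7 were Emcn (0.993), Pear1 (0.993) and Icam2 (an endothelial adhesion molecule, 0.990). Within the 10 IP libraries, the genes most like Igfbp3 were Notch4 (r = 0.988), Slc2a10 (0.987) and Flt1 (0.986), with nearly equal r. For Igfbp5 the 3 genes were Thrsp (0.833), Lgals12 (0.825) and Plin1 (0.779), the last of which encodes the coat protein of fat droplets. For Igf1 they were Qpct (0.795), Tmem144 (0.788) and Rnf128 (0.787). These r describe 20 or 10 libraries that share fraction and endothelial content. Control IgG IP 3 is among them, so the r for Igfbp3 are description only.

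The study asked what Notch4 blockade does to tumor endothelium. In the homogenate no member passed the test between 6-3-A6 and control IgG, 5 against 5. All 8 members had log2 fold changes below 0, from -0.57 (Igfbp6) to -0.07 (Igf1r), with edgeR adjusted p = 1.00 for each and the lowest unadjusted p at 0.133 (Igf1). Over all 13683 genes 0% were called (0 by edgeR and 0 by DESeq2, with 180 and 220 at an unadjusted p under 0.05). No member had groups that did not overlap, against 0.168% of all genes. The intervals of 2 SE were -1.27 to 0.70 for Igfbp2, -1.30 to 0.16 for Igfbp6 and -0.44 to 0.29 for Igf1r. Decreases and increases of these sizes thus lie within them.

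In IP, the 3 against 3 libraries that the study kept gave larger differences, of which none passed among the members. Igfbp5 stood at 32.3, 23.1 and 21.5 CPM under control IgG and at 13.7, 9.53 and 16.9 CPM under 6-3-A6, with no overlap. Its log2 fold change was -0.97 (SE 0.25, 1.96-fold lower; edgeR adjusted p = 0.0508, unadjusted p = 0.00245). DESeq2 called it (adjusted p = 0.0105), and so did edgeR without a filter on low counts (adjusted p = 0.00288). Markers of other cells had medians below 0 in the same libraries. The median log2 fold change was -1.13 over 6 adipocyte markers (0 called; Plin1 -1.15, Adipoq -1.16), -0.97 over 7 epithelial markers (2 called lower) and -0.83 over 10 fibroblast markers (2 called lower), and the part of the adipocyte markers in the value of Igfbp5 was not tested.

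Igf1 stood at 32.9, 35.0 and 28.0 CPM under control IgG and at 26.0, 10.4 and 19.2 CPM under 6-3-A6, again with no overlap. Its log2 fold change was -0.82 (SE 0.29, 1.77-fold lower; edgeR adjusted p = 0.150). Without the filter it passed (adjusted p = 0.0160). In these 6 libraries 4.61% of 13999 genes were called and the groups did not overlap for 24% of them, so 2 non-overlapping members of 8 is close to the share over all genes.

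Igfbp3 and Igfbp7 had values above 0 in these libraries. Igfbp3 stood at 7035, 1601 and 2752 CPM under control IgG and at 8355, 7241 and 6528 CPM under 6-3-A6, and its log2 fold change was 0.93 (SE 0.46; edgeR adjusted p = 0.294). Igfbp7 stood at 1352, 435 and 881 CPM under control IgG and at 1916, 1075 and 1839 CPM under 6-3-A6, and its log2 fold change was 0.82 (SE 0.39; edgeR adjusted p = 0.270). For each gene the groups overlapped through control IgG IP 2. Igfbp3 passed when that library was left out (log2 fold change 1.76, adjusted p = 0.0232) and without the filter (adjusted p = 0.0433).

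Endothelial content differed between these groups in the same direction. The 3 control libraries had scores of 0.07 to 1.45 and the 3 treated ones 2.87 to 3.02, the 17 endothelial markers had a median log2 fold change of 0.88 (5 called higher, 0 lower) and the 12 macrophage markers one of -0.95 (7 called lower). With the score as a covariate the value turned to -1.63 for Igfbp3 and -1.22 for Igfbp7, and neither passed (edgeR adjusted p = 0.890 for both). Igfbp5 was at -1.41 in that fit and did not pass (edgeR adjusted p = 0.890). Treatment and endothelial content cannot be told apart in these 6 libraries. The left-out control IgG IP 1 and control IgG IP 3 scored 2.73 and 3.43, above the kept control libraries. The left-out 6-3-A6 IP 2 and 6-3-A6 IP 5 scored 0.46 and 1.65, below the kept treated ones. With the left-out libraries included, mean scores were 1.76 ± 1.33 under control IgG and 2.19 ± 1.12 under 6-3-A6 (SD, n = 5 each), with overlapping ranges.

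With all 10 IP libraries no member passed. Igfbp3 had a log2 fold change of -0.21 (SE 0.55), given as description, and -0.05 (SE 0.59, edgeR adjusted p = 0.993) without control IgG IP 3. Igfbp7 had 0.07 (SE 0.51), against 0.93 for Igfbp3 and 0.82 for Igfbp7 in the kept libraries. Igfbp5 and Igf1 had -0.55 (SE 0.31) and -0.63 (SE 0.30), with overlapping groups. The edgeR adjusted p = 1.00 for each of the 7 members tested with all 10 libraries, where 0% of 13602 genes were called by edgeR and 0 by DESeq2 (292 and 359 at an unadjusted p under 0.05). The groups did not overlap for 0.206% of all genes and for no member.

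**Figure D4:**
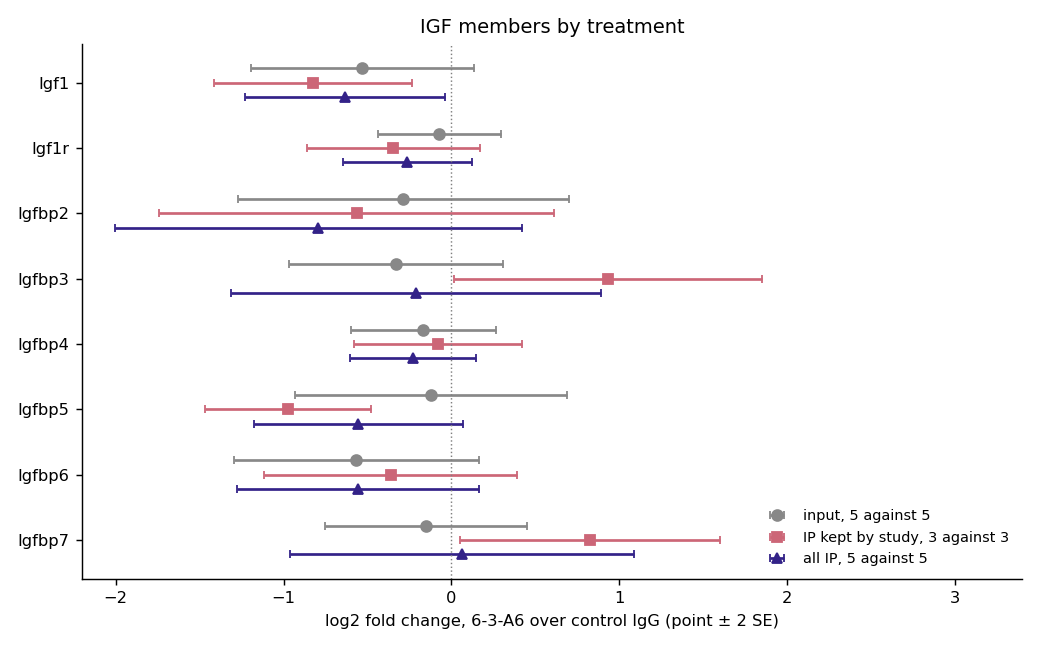
Log2 fold change of 6-3-A6 over control IgG for the 8 members (points, with bars of 2 SE) in input (5 against 5), in the 6 kept IP libraries (3 against 3) and in all 10 (5 against 5); both IP comparisons share libraries. Igfbp3 and Igfbp7 lie at 0.93 and 0.82 in the kept libraries and at -0.21 and 0.07 in all, while Igf1 and Igfbp5 lie below 0 in all 3.

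Whether the effect of 6-3-A6 differed between IP and input was tested as an interaction over the 20 libraries. The interaction was -0.46 (SE 0.54) for Igfbp5, -0.13 (SE 0.48) for Igf1 and 0.20 (SE 0.64) for Igfbp7, and with the tumor of control IgG IP 3 left out it was 0.30 (SE 0.75) for Igfbp3. The edgeR adjusted p = 1.00 for each of them. Over 13582 genes 0% were called (0 by edgeR and 0 by DESeq2, 100 and 125 at an unadjusted p under 0.05).

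Among the other receptors and adaptors of the pathway, the insulin receptor and the adaptor Grb10 rose in the endothelial fraction. Insr, the insulin receptor, rose in IP from 55.6 ± 12.0 to 152 ± 49.0 CPM (SD, n = 10 each), a log2 fold change of 1.37 (SE 0.18, edgeR adjusted p = 4.07e-06), where Igf1r had 0.05. Grb10, an adaptor that dampens insulin and IGF1 receptor signaling, rose from 7.12 ± 1.76 to 126 ± 56.8 CPM, a log2 fold change of 4.04 (SE 0.23, edgeR adjusted p = 3.80e-11), and its fractions did not overlap. Of the 8 genes tested in this list 2 rose and 0 fell, where 19.8% of all genes were called higher, so the count is near that share. The docking proteins Irs1 and Irs2 had log2 fold changes of -0.23 and 0.25 (adjusted p = 0.471 and 0.186). The list's median log2 fold change was 0.22.

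Genes that govern cleavage of the binding proteins differed between fractions in 4 of 5 tested, where 41.2% of all genes did. The stanniocalcins, which inhibit PAPP-A, rose in IP: Stc1 by a log2 fold change of 4.09 (SE 0.37, edgeR adjusted p = 1.05e-08) and Stc2 by 2.83 (SE 0.37, adjusted p = 3.74e-06). Adam12, a metalloprotease, rose by 1.33 (SE 0.28, adjusted p = 8.17e-04). Pappa itself lay at 4.06 ± 1.66 CPM in input and 2.64 ± 0.932 CPM in IP, a log2 fold change of -0.73 (SE 0.26, adjusted p = 0.0284), which did not pass under 5 of 15 alternatives. These were leaving out control IgG tumor 3, 6-3-A6 tumor 1 or 6-3-A6 tumor 4 (adjusted p = 0.0544, 0.0516 and 0.0873), no filter on low counts (0.0741) and only the tumors kept by the study (0.107). The median log2 fold change over the 5 genes was 1.33, against -0.05 over all genes tested.

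Igf2bp2, an RNA-binding protein named for Igf2 mRNA, fell in IP by 0.66 on the log2 scale (SE 0.16, edgeR adjusted p = 0.00312). Igf2bp3 had -0.39 (adjusted p = 0.0636) and passed under 3 of 15 alternatives. The tumor as a replicate block was among these (-0.40, edgeR adjusted p = 0.0481). Among 15 genes of the PI3K, AKT and FOXO core, 4 rose and 2 fell, which is close to the 41.2% called among all genes. Foxo1, a transcription factor restrained by AKT, rose most, by 1.25 (SE 0.16, edgeR adjusted p = 1.75e-06), ahead of the regulatory subunit gene Pik3r1 (0.71, adjusted p = 3.99e-04) and the catalytic subunit gene Pik3cb (0.43, adjusted p = 0.0130). Pik3r2 and Akt2 had log2 fold changes of -0.39 and -0.38 (adjusted p = 0.0361 and 0.0419), and these 2 lost their calls under 9 and 11 of the 15 alternatives run. The median over the 15 genes was 0.08.

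**Figure D5:**
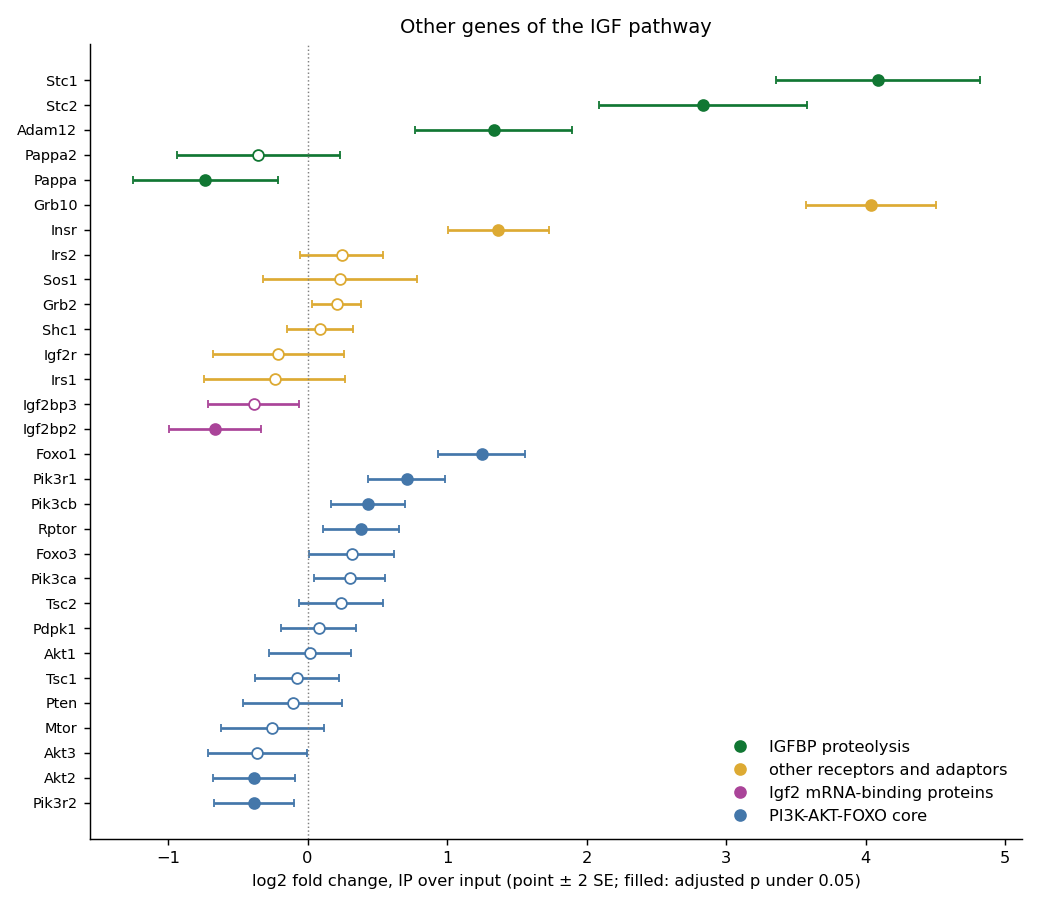
Log2 fold change of IP over input for the other tested genes of the IGF pathway, by list (points, with bars of 2 SE; filled, edgeR adjusted p under 0.05). Stc1 (4.09), Grb10 (4.04) and Stc2 (2.83) lie farthest to the right, and no gene lies below -0.73.

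By treatment, 2 of these genes passed in the 6 kept IP libraries. They were 1 of 8 tested receptors and adaptors (lower) and 1 of 5 tested genes of IGFBP cleavage (higher). None of the 2 tested Igf2 mRNA-binding protein genes and none of the 15 core genes passed. Of all genes 4.61% were called there, 2.57% higher and 2.04% lower, so a call as such does not set these genes apart. Igf2r, the receptor that takes up IGF2 for degradation and also carries lysosomal enzymes, stood at 253, 132 and 179 CPM under control IgG and at 71.7, 70.3 and 39.9 CPM under 6-3-A6. Its log2 fold change was -1.66 (SE 0.30, 3.16-fold lower, edgeR adjusted p = 0.0195). Stc2 stood at 14.7, 6.05 and 7.54 CPM under control IgG and at 24.0, 34.6 and 21.2 CPM under 6-3-A6, a log2 fold change of 1.46 (SE 0.32, 2.76-fold higher, edgeR adjusted p = 0.0322).

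The groups did not overlap for either gene in those 6 libraries, which held for 24% of all genes there. With all 10 IP libraries the log2 fold changes were -0.57 (SE 0.42) for Igf2r and 0.41 (SE 0.55) for Stc2, with adjusted p = 1.00 for both. Among the libraries left out, control IgG IP 1 and 3 held Igf2r at 88.4 and 89.7 CPM and 6-3-A6 IP 2 held it at 205 CPM. Igf2r lies across from the antisense gene Airn over 28354 bases, and how strand was used in counting is not given in the sources used here. With the score as a covariate in the 6 kept libraries, the log2 fold change was -2.84 (SE 0.67) for Igf2r and -0.17 (SE 0.68) for Stc2. Neither passed (edgeR adjusted p = 0.890 and 0.978). Scores did not overlap between the treatments in these 6 libraries, so that fit cannot separate the 2. Over all 10 IP libraries the same fit gave -0.50 (SE 0.29) for Igf2r and -0.22 (SE 0.33) for Stc2, and neither passed. Leaving out 6-3-A6 IP 3 or 4 ended the call for Igf2r (adjusted p = 0.0602 and 0.0531), and leaving out any of the 6 libraries but control IgG IP 2 ended that for Stc2 (adjusted p = 0.0603 to 0.119).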

How the data were processed

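The authors aligned single reads of 100 bases with STAR and counted them per gene with featureCounts. One deposited table holds raw counts for 20 libraries, and 6 columns of another deposited table hold signal values, which equal those counts divided by 1 constant per library (checked to a relative tolerance of 1e-06 for 100% of genes with counts). The submitters' processing notes name STAR 2.7.4a, featureCounts 2.0.1 and 1.5.2, and DESeq2. The methods name mm10, but the positions in the table are not those of that build and were used only for overlaps and distances within the table. Columns of the authors' own comparisons hold fold changes and p-values and were not used.

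Members, gene lists and tests were chosen with earlier results of these data known. The 9 members were named throughout. From the other lists, up to 3 called genes in each direction, and the direct partners Igf2r, Insr, Irs1, Irs2, Pappa and Igfbp1, were named. Counts were tested with edgeR 4.0.16 in R 4.3.3 (quasi-likelihood, TMM scaling, filterByExpr with a minimum count of 10, Benjamini-Hochberg adjustment over all genes tested, threshold 0.05), with the tumors' fraction and treatment as terms and DESeq2 1.42.0 as an alternative. SE is the fitted log2 fold change over the root of F, and intervals are 2 SE. CPM are TMM-scaled; log2 CPM used a prior count of 2. Exon lengths are unions of GENCODE vM21 exons. Correlations were tested by permutation (100000 resamples, or exact below 10 libraries). IP and input share a tumor, and their deviations from group means correlated by -0.06 to 0.73 (8 of 10 tumors above 0.1). On simulated counts, 166 of 200 changed genes were recovered for IP against input (13507 genes; 69 of 101 at 2-fold), 124 for the 6 kept libraries (13801 genes; 43 of 112), 126 for all IP libraries (13470 genes; 36 of 97), 110 for treatment in input (13525 genes; 29 of 108) and 76 for the interaction (13454 genes; 6 of 100), with 5 to 12 false calls. The simulation drew each gene on its own, without shared differences in endothelial content between libraries and without the pairing of IP and input. Its recovery and false calls therefore do not show how the tests behave under such differences. The comparison of neighbors in the order of levels, and the correlations without the 2 lowest-scoring libraries, were added after the data were seen. No libraries agreed within sampling noise. Nothing in the labels says more of the replicates than 1 tumor each. Counts measure reads, not molecules, so the floor of 3 counts covers counting error only.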

Additional observations from a re-analysis of the deposited data

Results flagged for a closer look

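In 32 sets of 5 libraries (8 members in 4 groups), 3 held a library set apart from its group by Dixon's criterion for 5 samples (0.71), where chance gives about 1 in 20. Igfbp4 stood at 1484 CPM in control IgG input 3, whose nearest neighbor was at 998 CPM, and at 547 CPM in 6-3-A6 input 4, whose nearest neighbor was at 973 CPM. Igfbp2 stood at 1.35 CPM in 6-3-A6 IP 3, with the nearest library at 0.722 CPM. The input library 6-3-A6 input 4 also had the lowest endothelial content score of all libraries, -3.48, and mt-Cytb as its most counted gene. No member moved one way in every tumor of one treatment and the opposite way in every tumor of the other.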

How the results depend on the processing

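The calls for Igfbp4 and Igfbp7 between IP and input kept their direction and their side of the threshold under every alternative run. Igfbp3 was above 0 under each of them (log2 fold change 4.36 to 4.64) and was tested in those that leave out the tumor of control IgG IP 3, where it passed. Igfbp6 lost its call without the filter on low counts (adjusted p = 0.0605), without control IgG replicate 2 (0.0616), without 6-3-A6 replicate 1 (0.0605) and with only the kept tumors, and Igfbp2 without 6-3-A6 replicate 5 (0.0732) and with only the kept tumors. Genes called between IP and input ranged from 4753 to 5799 when a tumor was left out and were 3347 with only the kept tumors, which are fewer. For treatment in the 6 kept IP libraries, 646 genes were called, against 1251 with DESeq2, 1459 without the filter and 0 with the endothelial score as a covariate (edgeR; 617 at an unadjusted p under 0.05), and leaving out 1 library gave 9 (without 6-3-A6 replicate 3) to 653. The number of members that passed against the score was 2, and 0 without control IgG IP 4 and 6-3-A6 IP 2, an alternative chosen after seeing the data. The cause was not tested.

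Directions turned as follows, none past the threshold where tested. Without the tumor of control IgG IP 3, Igfbp5 between IP and input was -0.038. With the score as a covariate, the kept libraries gave -1.63 for Igfbp3, 0.77 for Igfbp4, 0.14 for Igfbp6, -1.22 for Igfbp7 and -0.17 for Stc2, and all IP libraries gave -0.17 for Igfbp7 and -0.22 for Stc2. With the endothelial markers alone as score, r was 0.017 for Igf1, 0.11 for Igfbp2 and 0.12 for Igfbp6. Leaving out 1 replicate at a time gave log2 ranges across 0 for IP against input of Igf1r (-0.011 to 0.13) and Igfbp5 (-0.051 to 0.16), for treatment in input of Igf1r (-0.17 to 0.039), Igfbp2 (-0.64 to 0.055) and Igfbp5 (-0.34 to 0.040), for treatment in the kept libraries of Igfbp2 (-1.02 to 0.26) and Igfbp4 (-0.27 to 0.19), for treatment in all IP libraries of Igfbp3 (-0.45 to 0.10) and Igfbp7 (-0.15 to 0.34), and for the interaction of Igf1 (-0.34 to 0.27), Igfbp3 (-0.017 to 0.30), Igfbp4 (-0.22 to 0.095), Igfbp6 (-0.43 to 0.25) and Igfbp7 (-6.10e-05 to 0.45).

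The replicate block, which pairs IP and input of a tumor, changed no call of a member. For treatment, the numbers do not pair animals, and same-numbered libraries correlated by -0.32 to 0.26 in input and -0.20 to 0.38 in IP; with that block, Igfbp7 in all IP libraries was -0.028 and no other member turned. The other 603 values of single genes and 63 counts of genes kept their direction and their side of the threshold, stayed within 1.5 times or, for values without a test, moved by less than 1 SD between replicates. Few counts limit what could be seen of Igfbp2 and Igfbp6.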
